A study of Mus musculus with 6 samples.

Results

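The genes described here are 6 mouse serine proteases with a trypsin-like fold, Prss35, Prss23, Prss12, Htra1, Htra2 and Htra3. They were selected by gene name with the wound-against-skin values of these arrays already known, so every difference between wound and skin given for them is a description and carries no p-value. All 6 were found by Entrez identifier among the 19267 genes of the authors' deposited table, and all 6 were among the 16660 genes tested here. RNA came from transgenic SMA-GFP mice, in which the promoter of smooth muscle actin (Acta2) drives green fluorescent protein. Both groups were sorted as CD45- and CD31- cells, that is, without the surface markers of white blood cells and of endothelium. Skin cells were SMA-GFP+ (low reporter) cells of the dermis, which the labels call fibroblast-like, and wound cells were SMA-GFP+++ (high reporter) cells taken 7 days after injury, which the labels call myofibroblasts. The labels give no strain, age or sex of the animals and do not say whether animals were pooled. Each group had 3 one-colour Agilent arrays, replicates 1 and 2 on array design 026655 and 1 array on design 028005 that is called replicate 3 only as a name. The reporter level and the injury change together between the groups and cannot be told apart, and the labels do not say that replicates came from separate animals, so the errors cover only how much these arrays varied, part or all of which may be technical.

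Many trypsin-like proteases cut proteins after basic residues with a catalytic triad of histidine, aspartate and serine, and many are kept in check by serpins and Kunitz-type inhibitors. Members of the HtrA family carry a protease domain of the same fold joined to a PDZ domain and work without ATP. Neither cleavage after basic residues nor control by those inhibitors is claimed for them. HTRA1 and HTRA3 are secreted and are known to cleave proteins of the extracellular matrix and to bind growth factors of the TGF-beta family. HTRA2 is not secreted. It lies in the space between the mitochondrial membranes and binds inhibitor of apoptosis proteins once released, so the word secreted does not cover the whole group. PRSS12, also called neurotrypsin or motopsin, is a secreted mosaic protein with kringle and scavenger receptor domains that cuts agrin at synapses. PRSS23 and PRSS35 are closely related secreted proteins, and PRSS35 is classified as a putative inactive protease because its catalytic serine is replaced.

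Prss35 was at or near background in skin cells and well above it in wound cells, while Prss12 and Htra3 were lower in wound cells. Htra1, Prss23 and Htra2 differed by less than 2-fold. By limma's moderated test with the array design as a term and a Benjamini-Hochberg adjusted p under 0.05 over all tested genes, 2 members were called higher in wound cells (Prss35 and Htra2), 2 were called lower (Prss12 and Htra3) and 2 were not called (Prss23 and Htra1). Among all 16660 tested genes 34.1% were called, 18.5% higher and 15.5% lower in wound cells. As the members were picked with this contrast known, nothing is read from that count. Levels below are the log2 of the processed spot signal minus the 75th percentile of the array, so a level of 0 is a signal equal to that percentile. Levels of different genes come from different probes and cannot be ranked against each other.

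The 3 genes with a difference above 2-fold are shown with the 250 bases before their annotated start, because they are the members that set the groups apart. Sequences are from RefSeq promoter windows of build GRCm38.p6, printed 5′ to 3′ on the strand of the gene, and capitals mark a match to a searched motif. The window of Prss35 is chr9:86743383-86743632 on the plus strand, that of Prss12 is chr3:123446663-123446912 on the plus strand, and that of Htra3 is chr5:35679781-35680030 on the minus strand.
Prss35: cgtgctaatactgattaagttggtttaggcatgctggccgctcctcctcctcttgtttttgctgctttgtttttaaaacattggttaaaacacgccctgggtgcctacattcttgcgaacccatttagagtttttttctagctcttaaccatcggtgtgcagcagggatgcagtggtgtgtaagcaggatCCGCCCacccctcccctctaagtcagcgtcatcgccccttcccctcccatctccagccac
Prss12: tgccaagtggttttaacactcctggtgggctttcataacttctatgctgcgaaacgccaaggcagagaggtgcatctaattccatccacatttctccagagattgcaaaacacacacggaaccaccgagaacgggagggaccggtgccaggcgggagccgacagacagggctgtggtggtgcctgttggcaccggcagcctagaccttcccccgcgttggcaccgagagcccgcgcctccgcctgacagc
Htra3: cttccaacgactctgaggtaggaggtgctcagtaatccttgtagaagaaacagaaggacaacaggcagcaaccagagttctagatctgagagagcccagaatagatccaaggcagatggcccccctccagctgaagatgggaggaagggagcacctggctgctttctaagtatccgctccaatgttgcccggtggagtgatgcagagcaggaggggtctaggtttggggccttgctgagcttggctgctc
Motifs were searched on both strands. The core bound by TEAD factors was taken as GGAATG. The site of AP-1, a dimer of Fos and Jun proteins, was taken as TGANTCA. The TATA box, which places the start of transcription, was taken as TATAAA. The GC box, bound by Sp factors, was taken as GGGCGG. The CArG box of serum response factor was searched as well. Of these motifs the Prss35 window held a single GC box, 60 bases before the start, and the windows of Prss12 and Htra3 held no match. Among all 32851 windows of this length a GC box occurred in 32.7%, a TEAD core in 12.6%, a TATA box in 12.4%, an AP-1 match in 6.75% and a CArG box in 1.47%. The base composition also differed. The GC content was 50.8% for Prss35, 59.6% for Prss12 and 54.8% for Htra3, against a median of 52.4% over all windows. The observed over expected ratio of CpG was 0.516, 0.676 and 0.164 in the same order, with a median of 0.373 over all windows, so the Htra3 window lay below the median. The window of Htra1 (chr7:130935953-130936202, plus strand) held a single GC box 139 bases before the start and had a GC content of 64.8%. Prss23 had 7 windows for different annotated starts. Overlapping windows held an AP-1 match 146 or 169 bases before the start, and other windows held GC boxes or no match. A match is a description of the letters and not evidence of a bound site.

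Prss35 (Entrez 244954, probe A_55_P2111985) had levels of -5.89, -6.04 and -4.53 on the skin arrays, in the order of replicates 1, 2 and 3, an order kept throughout. On the wound arrays the levels were 1.01, 2.14 and 2.79. Every wound array lay far above every skin array, and the groups did not overlap on either design. In units of the scanner's processed signal, the skin arrays read between 11.5 and 19.9, and the wound arrays read 1519, 2723 and 3606. The probe was well above background on 1 of 3 skin arrays, replicate 3, and on 3 of 3 wound arrays. The difference was 7.47 on the log2 scale (SE 0.30, 3 arrays per group, 95% interval 6.74 to 8.19), or 177-fold as read. On design 026655 no skin array measured the probe, and the mean wound signal was 154-fold above a skin floor. The floor of an array was the lowest signal well above background of any probe, or the probe's own signal where higher. It is not the detection limit of this probe, so the value is approximate and not a lower bound. On design 028005, where both arrays measured it, the difference was 7.32, or 160-fold. With normexp background correction, which adds an offset of 50 and draws dim signals together, the difference was 4.92, or 30.2-fold. The wound arrays themselves spread by 1.13 between replicates 1 and 2, against 0.14 for the skin arrays of that design, which were both at background.

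Prss23 (Entrez 76453, probe A_52_P679105), the close relative of Prss35, did not share that pattern. The skin arrays had levels of 2.77, 2.89 and 3.96, against 3.26, 2.89 and 4.57 on the wound arrays. Skin and wound values overlapped, with replicate 2 of both groups at the same level to 2 decimals. The difference was 0.37 (SE 0.18, 3 arrays per group, 95% interval -0.06 to 0.80) and was not called. It was 0.24 on design 026655 and 0.62 on design 028005. The probe was well above background on every array, with a processed signal between 4573 and 12403.

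**Figure D1:**
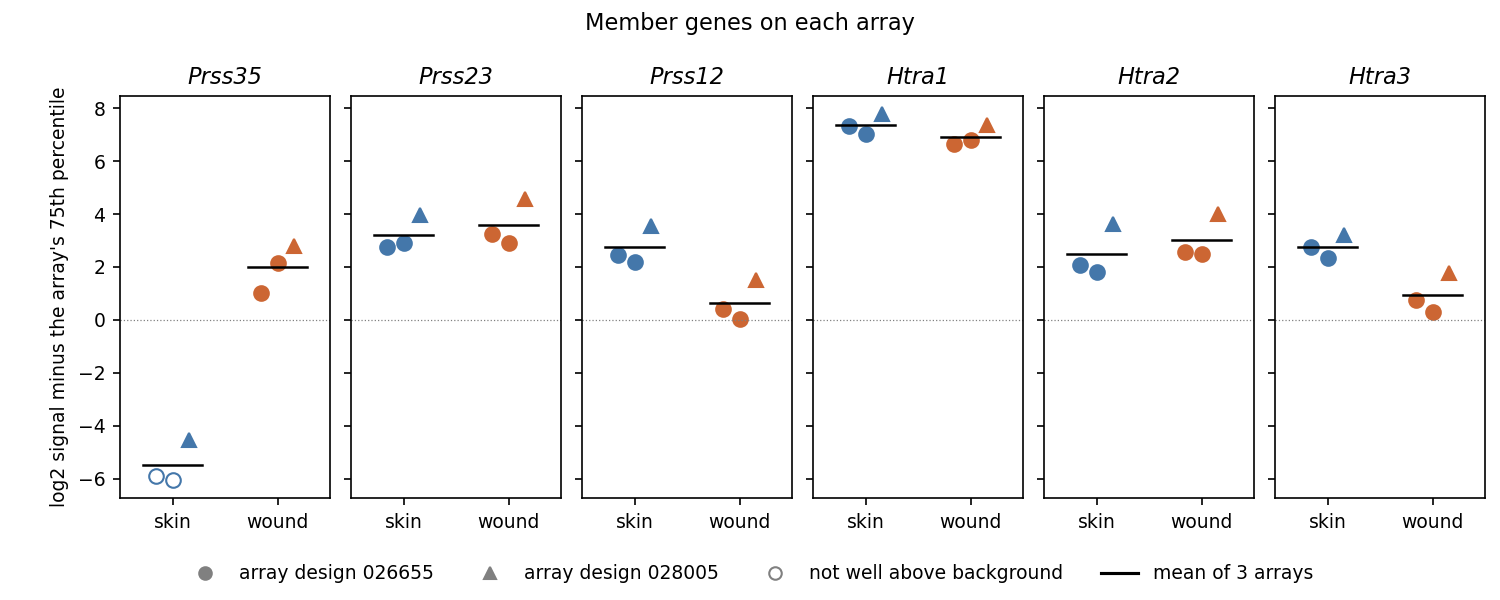
Levels of the 6 genes on each array, as log2 signal minus the 75th percentile of the array, for skin (blue) and wound (orange); circles are arrays of design 026655, triangles of design 028005, open symbols are not well above background, and the bar is the mean of 3 arrays. Prss35 lies between -6.04 and -4.53 in skin and between 1.01 and 2.79 in wound, Prss12 and Htra3 are lower in wound, and the panels are separate probes whose heights are not comparable.

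Prss12 (Entrez 19142, probe A_51_P477682), the gene of neurotrypsin, was measured on all 6 arrays. The skin arrays had levels of 2.47, 2.20 and 3.56, against 0.40, 0.03 and 1.51 on the wound arrays. The groups did not overlap, the highest wound array being below the lowest skin array. The processed signal read 3930, 3485 and 5398 on the skin arrays and 992, 629 and 1479 on the wound arrays. The difference was -2.10 (SE 0.17, 3 arrays per group, 95% interval -2.52 to -1.68), so the signal was 4.28-fold lower in wound cells. The designs gave nearly the same value, -2.12 on 026655 and -2.05 on 028005. Of the 16660 tested genes, 92.3% had a smaller absolute difference.

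Htra3 (Entrez 78558, probe A_52_P217437) was lower in wound cells by a similar amount. The skin arrays had levels of 2.76, 2.35 and 3.20, against 0.76, 0.30 and 1.79 on the wound arrays. No wound array reached the lowest skin array. The difference was -1.82 (SE 0.23, 3 arrays per group, 95% interval -2.37 to -1.26), or 3.53-fold lower in wound cells. The difference was 4.06-fold on design 026655 (log2 -2.02) and 2.66-fold on design 028005 (log2 -1.41). The probe was well above background on all 6 arrays.

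Htra1 (Entrez 56213, probe A_51_P225224), the other secreted HtrA protease, gave a strong signal in both groups. The skin arrays had levels of 7.34, 7.01 and 7.77, against 6.64, 6.78 and 7.36 on the wound arrays. Within each design the wound arrays were below the skin arrays, while over all 6 arrays the groups overlapped. The processed signal lay between 97396 and 114929 on the skin arrays and between 67757 and 85516 on the wound arrays, and no spot on any array was saturated. The difference was -0.45 (SE 0.16, 3 arrays per group, 95% interval -0.83 to -0.06) and was not called after adjustment over all genes. It was -0.47 on design 026655 and -0.41 on design 028005. Whether the differences of Htra1 and Htra3 differ from each other was not tested.

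Htra2 (Entrez 64704), the mitochondrial member, was the only one with 2 probes. The brighter probe, A_55_P1973699, had levels of 2.06, 1.80 and 3.61 on skin arrays, against 2.57, 2.50 and 3.99 on the wound arrays. Wound arrays were higher than skin arrays within each design, and the groups overlapped once the designs were put together. The difference was 0.53 (SE 0.15, 3 arrays per group, 95% interval 0.16 to 0.91), or 1.45-fold higher in wound cells. The other probe, A_55_P1973698, gave a difference of 0.50 on design 026655 and 0.55 on design 028005, beside 0.61 and 0.39 for the brighter probe. The call of Htra2 was lost in 11 of 16 alternatives, among them every fit that left out 1 array, where the difference lay between 0.44 and 0.61.

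**Figure D2:**
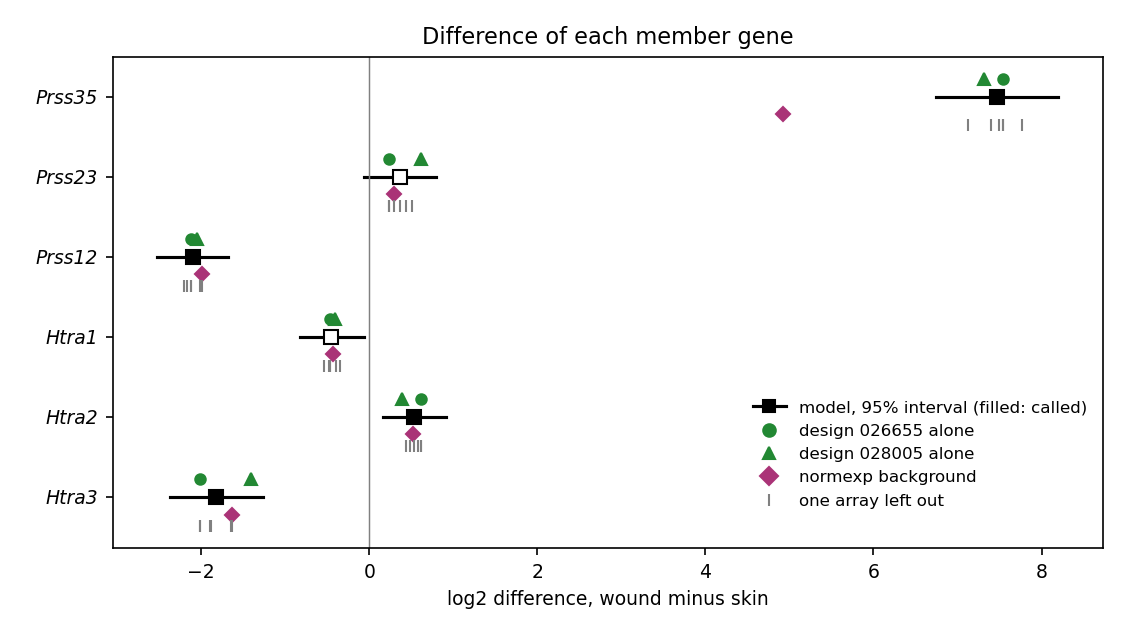
Log2 difference of wound minus skin for each gene; squares are the model's estimate with its 95% interval (filled where called), green symbols are the values within each array design, diamonds are with normexp background correction, and ticks are fits that left out 1 array. Prss35 stands at 7.47 and at 4.92 with normexp, Prss12 and Htra3 lie below -1 in every fit drawn, and the other genes lie between -1 and 1.

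The authors' deposited table, whose log2 scale was inferred from its match to the scanner values and whose genes are centred in a way that is not stated, had Prss35 higher and Prss12 and Htra3 lower on every wound array than on every skin array. In the authors' deposited table Prss35 stood at -3.64, -3.83 and -3.90 on the skin arrays and at 3.17, 4.25 and 3.42 on the wound arrays. Htra3 stood at 1.01, 0.56 and 0.46 on skin and at -1.07, -1.58 and -0.94 on wound arrays in the authors' deposited table. The table was made from the same arrays and probes and is no independent measurement.

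Genes whose pattern over the 6 arrays was nearest to each member were found by the root mean square difference of values centred within each design. The nearest to Prss35 were the metalloproteinase gene Mmp9 (0.283 log2 units) and Glipr1 (0.393), both of them also at or near background in skin, with 0 and 1 of 3 skin arrays well above it. The nearest to Prss12 were Ngb (0.0715), which encodes neuroglobin, and Nrtn (0.0788), which encodes neurturin. Those of Htra3 were the homeobox gene Rax (0.0696), measured on 2 of 3 wound arrays, and the flavin monooxygenase gene Fmo5 (0.102). For the members with small differences many genes lie close, and the nearest were Baiap2 and Tram1 for Prss23, Glb1l and Klhl17 for Htra1, and Fancl and Slc35c2 for Htra2, all within 0.0262 log2 units. The distances describe these arrays and were given no test.

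Other trypsin-like proteases were mostly dim or not called. The list held every other gene named Prss, Htra, Tmprss or Klk with St14, Hpn and Corin, and 38 of its 80 genes on both designs were bright enough to test. Of these, 6 were called higher in wound cells, 9 were called lower and 23 were not called, which is 39.5% called against 34.1% of all tested genes. The median difference was -0.03, beside 0.05 over all tested genes. By the signals as read, the naming rule picked Tmprss4, Tmprss13 and Klk5, serine proteases known from epithelia. These probes were well above background on all 3 skin arrays and on no wound array, so they were tested only through skin. The size of each decrease was taken against a wound floor set as for Prss35 and is approximate. Against that floor the mean skin signal was 11.4-fold higher for Tmprss4, 6.60-fold for Tmprss13 and 4.13-fold for Klk5. With detection required on all 6 arrays, which leaves out genes undetected in 1 group, 3 were called higher and 1 lower. Leaving out 1 array gave 3 to 4 called higher, the lowest without wound replicate 1, and 7 to 9 lower. Htra4, the remaining HtrA gene, named here after its value was seen, was well above background on 1 of 3 skin arrays and on 3 of 3 wound arrays, and on design 028005, where both arrays measured it, it read 1.04 higher in wound on the log2 scale.

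Inhibitors of trypsin-like proteases were higher in wound cells for 6 of 10 tested genes of 12 on the arrays, with 1 lower (Serping1, which encodes the C1 inhibitor, named after its value was seen) and 3 not called. That is 70.0% called, beside 34.1% of all tested genes (18.5% higher and 15.5% lower). The median was 1.16, with 1.18 on design 026655 and 1.13 on design 028005. Serpind1, the gene of heparin cofactor II, was measured on 2 of 3 skin arrays and had a difference of 2.93 as read (SE 0.31). It passed the filter only through the wound arrays, where it was higher, so no p-value is given for it. With detection required on all 6 arrays, 5 inhibitors were called higher and 1 lower. Tfpi2, a Kunitz-type inhibitor, rose 5.73-fold (log2 2.52, SE 0.21, limma adjusted p = 0.000406). Serpine2, which encodes protease nexin 1, rose 5.40-fold (log2 2.43, SE 0.33, adjusted p = 0.00224), by 1.99 on design 026655 and by 3.32 on design 028005. The call of Serping1 was lost without skin replicate 1 or wound replicate 2.

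Substrates and ligands reported for HTRA1 and HTRA3 were split, with 6 of 19 called higher, 6 lower and 7 not called, and a median of 0.05. That is 63.2% called, beside 34.1% of all tested genes (18.5% higher and 15.5% lower). Vtn, the gene of vitronectin, rose 9.96-fold (log2 3.32, SE 0.20, limma adjusted p = 0.000136). Efemp1, which encodes fibulin-3, fell 9.91-fold (log2 -3.31, SE 0.24, adjusted p = 0.000248), and Fmod, which encodes the collagen-binding proteoglycan fibromodulin, fell 5.55-fold (log2 -2.47, SE 0.28, adjusted p = 0.00121). Of the neurotrypsin substrates, Agrn, the gene of agrin, rose 2.21-fold (log2 1.14, SE 0.16, adjusted p = 0.00263), and Clstn1, the gene of calsyntenin 1, stood at -0.40 (SE 0.15, adjusted p = 0.0792).

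Among 8 HTRA2 partners of the mitochondrion and of cell death, 1 was called higher, 2 were called lower and 5 were not called. The share called, 37.5%, was near the 34.1% of all tested genes. Cycs, which encodes cytochrome c, stood at 0.67 (SE 0.16, limma adjusted p = 0.0198) and lost its call without skin replicate 1, without wound replicate 1 and on design 026655 alone. Pink1, a mitochondrial kinase gene, fell 2.48-fold (log2 -1.31, SE 0.17, adjusted p = 0.00172), and Birc3, an inhibitor of apoptosis gene, fell 2.56-fold (log2 -1.36, SE 0.20, adjusted p = 0.00347). Xiap, the best-known inhibitor of apoptosis bound by HTRA2 and named after its value was seen, stood at 0.10 (SE 0.14, adjusted p = 0.631). The lists of proteases, inhibitors, substrates and partners were written with earlier results of these arrays known, and their counts are descriptions of these lists.

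**Figure D3:**
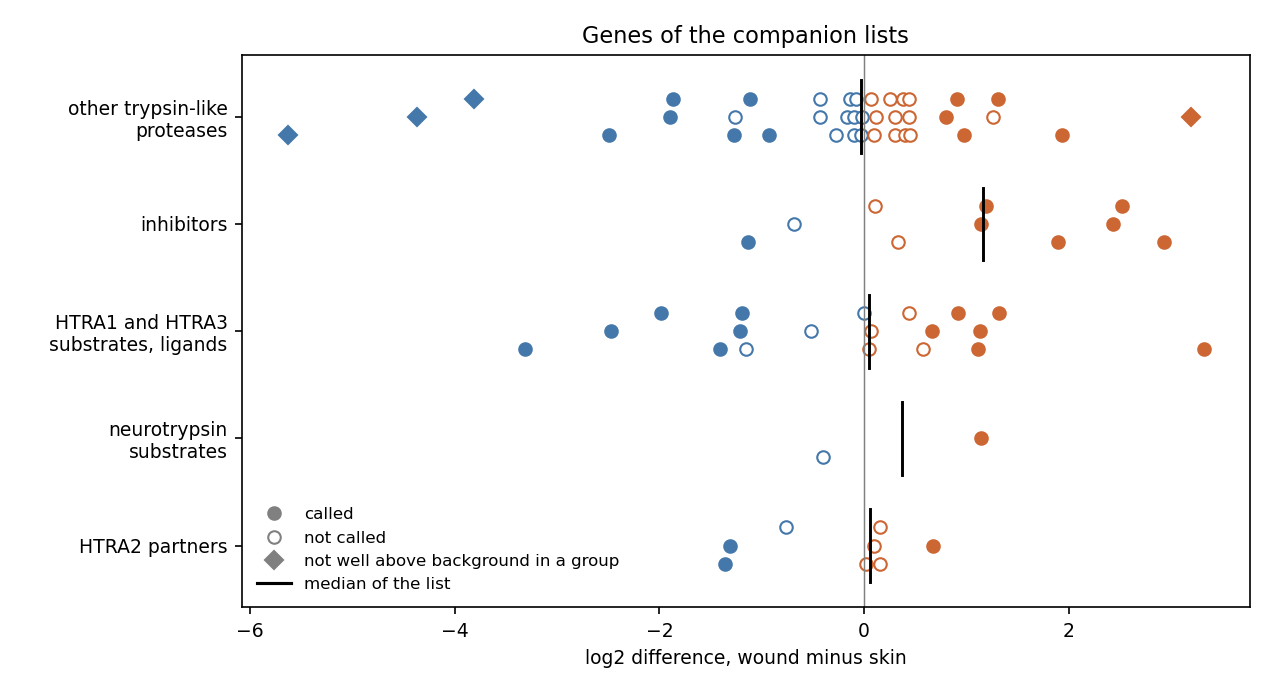
Log2 difference of wound minus skin for each tested gene of the 5 companion lists; orange is higher and blue lower in wound, filled symbols were called, diamonds were not well above background on any array of a group, and the bar is the median of the list. The inhibitors centre on a median of 1.16, while the other proteases and the HTRA1 and HTRA3 substrates spread on both sides of 0.

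The 6 arrays had 64.4% to 72.6% of spots well above background, and correlations across genes were 0.970 to 0.989 within a group and 0.901 to 0.923 between groups. Acta2, whose promoter set the sort, was 26.1-fold higher in wound cells. Markers of other cell types differed between the groups beside the members. The summed signal of 8 keratinocyte markers, in multiples of the 75th percentile, was 13.4 to 34.3 on skin arrays and 0.578 to 2.21 on wound arrays, and 8 of 8 were called lower, with Krt1 and Cdh1 well above background on no wound array. Prss12, Htra3 and the proteases Tmprss4, Tmprss13 and Klk5 were also among the 15.5% of all tested genes called lower. Prss12 and Htra3 were well above background on all 3 wound arrays, and Tmprss4, Tmprss13 and Klk5 on none. Of 7 mural cell markers 5 were called higher, and the sum of the 7 was 21.1 to 36.4 on skin and 70.2 to 185 on wound arrays. Prss35 was likewise among the 18.5% of all tested genes called higher. Over both designs together, the summed signals of fibroblast, leukocyte, endothelial and mast cell markers overlapped between the groups. Fibroblast markers summed to 951 to 3106 on skin and 799 to 2450 on wound arrays. These sums were not compared within each design, so the overlap does not show equal levels. Single markers were called, with Pdgfra of fibroblasts (log2 -1.30) and Csf1r of leukocytes (log2 -0.93) lower and Tek of endothelium (log2 1.08) higher. Of 6 mast cell markers 3 could be tested, with Kit called higher, Mcpt4 called lower and the tryptase gene Tpsb2 not called. Of the remaining mast cell markers, Cpa3 was well above background on 2 skin arrays, Ms4a2 on 1 and Cma1 on 0, and all of them on no wound array. The part of these other cell types in the differences of the members was not tested, and in sorted bulk samples fewer cells of a type and less RNA per cell cannot be told apart.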

How the data were processed

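Per the file headers, the authors scanned 6 one-colour mouse arrays and extracted spot intensity values with Feature Extraction 10.7.3.1, with a design file of build mm9. The processed signal is background-subtracted and not scaled between arrays. The authors' deposited table holds log2 values per gene, for which the design text of the series names GeneSpring 14.5 as the software that joined the 2 array types. Its differences between skin and wound arrays were set against scanner log2 differences averaged over all probes of a gene, not the brightest probe. Over 16522 genes the slopes were 1.00, 1.000 and 0.977 for replicates 1, 2 and 3. The correlations were 0.99999, 0.99997 and 0.97582 in the same order. All sample columns of the authors' deposited table were used. The median of a column was -0.21, -0.25 or -0.25 for the skin arrays and -0.28, -0.27 or -0.23 for the wound arrays. The sources used here do not state how genes were centred or probes combined. A human array is named in the design text, but every sample is labelled mouse.

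The members and lists were chosen with earlier results of these data known. Control spots and outlier spots were removed before averaging the spots of each probe. Probes were named through the Entrez identifiers of the authors' table, or by RefSeq accession in a table for GRCm38.p6 (30621 of 39429 probes on design 026655 and 30647 of 55681 on design 028005). RefSeq promoter windows were found for 5 of the 6 members, all but Htra2. The values were log2 of the processed signal minus the 75th percentile of the array. The brightest probe of a gene on each design was used. Of 22872 genes with values on all arrays, 16660 passed the filter (well above background on every array of skin, of wound or of both). These genes entered the fit with limma 3.58.1 in R 4.3.3. It used lmFit and eBayes, with array design as a fixed term and 3 residual degrees of freedom. The fit was also run on data simulated from a model of the same form, which checks the code and not these arrays. Each design was 1 slide with both groups, so its term covers slide and scan. The normexp alternative used the spot median, as these files hold no mean signal. Named genes are all members, up to 3 called genes per list with the largest absolute difference, both genes of a list of 2, and the 2 nearest genes by pattern. Alternatives covered scaling, background, probe choice, filter, design term, replicate block and left-out arrays. The number of arrays limits the precision.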

Additional observations from a re-analysis of the deposited data

How the results depend on the processing

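As a description of values that also chose the members, the log2 difference of Prss35 ranged from 4.92 to 7.77 over 15 alternatives (it is left out where detection on all 6 arrays is required), and those of Prss12 and Htra3 from -2.20 to -1.99 and from -2.02 to -1.63 over 16. Over the same 16, Prss23 ranged from 0.24 to 0.51 and Htra1 from -0.54 to -0.35. Htra2 lost its call, leaving 1 member called higher, with no array design term (0.53), with the percentile over detected probes (0.46), with no filter on dim genes (0.53), in the authors' deposited table (0.47), on design 026655 alone (0.61) and without any 1 array (0.44 to 0.61, 1 member called higher). With detection on all 6 arrays 1 member was called higher because Prss35 was not tested. Leaving out either array of design 028005 gives the same fit as design 026655 alone.

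With no array design term 1744 of all genes were called, against 5676, and the counts called higher and lower were 2 and 6 for other proteases, 4 and 0 for inhibitors, 1 and 3 for HTRA1 and HTRA3 substrates, 0 and 0 for neurotrypsin substrates and 0 and 0 for HTRA2 partners. Detection on all 6 arrays gave 3 higher and 1 lower among other proteases. The inhibitors called lower numbered 2 when all probes were averaged and also 2 in the authors' deposited table. The percentile over detected probes called 1 neurotrypsin substrate lower, and the authors' deposited table called 0 higher. No HTRA2 partner was called higher (0) with no filter on dim genes, when all probes were averaged, in the authors' deposited table or on design 026655 alone. Without 1 array, all genes called numbered 3742 to 5014, the lowest without skin replicate 1. Such fits gave 3 to 4 other proteases higher, 0 to 1 inhibitors lower and 0 to 1 HTRA2 partners higher. Apart from the construction of the detection filter, the cause of these losses was not tested.

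The labels number replicates 1 and 2 of both groups on design 026655. Deviations of same-numbered arrays correlated at 0.153 over 16660 genes. With only 2 numbers per group, that value can neither show nor exclude a pairing of the samples. The replicate block called 5584 of all genes and changed no call of a member (Htra2 0.53). The signal of Prss35 in skin was at the limit of detection, so the size of its difference is less certain than its direction.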

Other observations

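All 6 members read higher against the 75th percentile on array design 028005 than on design 026655. This is not particular to the members, as many genes of the companion lists and cell type markers did the same, while some read lower. The shift was 0.62 for Htra1, 0.96 for Htra3, 1.26 for Prss12, 1.31 for Prss23, 1.33 for Prss35 and 1.56 for Htra2, as the mean of 2 arrays minus the mean of 4. For Prss23, Htra1 and Htra2 this shift was larger than the difference between wound and skin. The share of all genes with such a shift was not counted. Design 026655 holds 39429 probes and design 028005 holds 55681, so the percentile is taken over different probes, and its part in the shift was not tested. Prss46, outside the naming rule and noted after its value was seen, was well above background on 3 of 3 wound arrays and on no skin array. It passed the filter only through wound and is among the 6 other proteases called higher. Its mean wound signal was 5.20-fold above a skin floor set as for Prss35, an approximate value that was not itself tested.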
